A study of Mus musculus with 19 samples.

Results

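The RNA of 10 genes of the myostatin, follistatin and TGF-beta system was followed through the differentiation of cultured mouse muscle cells. The genes were taken by name, with earlier results of these data known. They were the ligands Mstn, Inhba, Tgfb1, Tgfb2 and Tgfb3, the secreted follistatin-family proteins Fst and Fstl1, and the receptors Acvr2b, Tgfbr1 and Tgfbr2. They are 10 of 35598 genes in the deposited tables and 10 of the 15123 genes with enough counts to be tested.

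The cells were primary myoblasts, muscle precursors from mouse hind-limb muscles that divide in growth medium and fuse into multinucleate myotubes after the switch to differentiation. There were 19 RNA-seq libraries in 6 groups. The libraries labelled wild type (WT) comprised 3 of proliferating myoblasts at 24 h, 3 of differentiated myotubes at 48 h and 4 of fused myotubes at 72 h. Those labelled as deficient in Glud1, the mitochondrial enzyme that interconverts glutamate and alpha-ketoglutarate, comprised 3, 2 and 4 libraries at the same stages and are called KO-labelled here. The labels give no strain, age or sex of the mice, no driver or timing of the deletion, and no treatment other than the stage. Replicates are called biological, but whether they come from separate animals or separate cultures is not given, so the p-values measure the spread between these libraries, which may be technical. The series title places the comparison in a study of how GLUD1 and mitochondrial glutamate bear on the fate of muscle stem cells.

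Ligands of this family are secreted as precursors, in many cases held latent outside the cell, and act through pairs of type II and type I receptor kinases that phosphorylate Smad proteins. Smads then carry the signal to the nucleus. In skeletal muscle myostatin and activin A limit muscle mass through the type II activin receptors, of which ACVR2B is the one best known for binding myostatin, and follistatin binds both ligands and blocks them. The TGF-beta ligands signal through TGFBR2 and TGFBR1 and restrain the differentiation of cultured myoblasts.

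The libraries held 16168131 to 30742634 estimated counts. The gene-level count of Glud1 did not separate the labels: its mean was 189 CPM (counts per library brought to one size by TMM factors) in WT-labelled and 187 CPM in KO-labelled myoblasts, 106 and 99.8 CPM at 48 h, and 135 and 133 CPM at 72 h. It was called at no stage by edgeR, whereas its summed TPM (an abundance scaled for length and depth) was lower in every KO-labelled library of each stage. The TPM ranges, WT-labelled against KO-labelled, were 163 to 175 against 136 to 142 at 24 h, 79.5 to 86.2 against 58.9 to 64.5 at 48 h, and 101 to 106 against 75.7 to 82.6 at 72 h. Gene-level counts would include reads from exons outside a deleted part, and the deleted part is not stated. In the names of the deposited tables both sets of libraries carry the letters KO, and those of the KO-labelled set also a T. What the T stands for is not given, so whether both sets come from 1 line and differ by a treatment is not known, and all directions below rest on the labels. Myogenic markers were present throughout, with a summed level over 8 genes of 1850 to 2304 CPM at 24 h and 19605 to 25589 CPM later. The 8 fibroblast markers summed to 268 to 294 CPM at 24 h, nearly all from Col3a1 (means of 282 and 266 CPM), while Dpt, Lum and Tcf21 had at most 3 counts in each library. Among markers of other cell types, Ly6a and Rgs5 were lower in KO-labelled myoblasts (3.08 against 5.89 and 32.5 against 38.7 CPM). At 48 h Ly6a and Col3a1 were lower, and Itgam (25.4 against 15.8 CPM) and Myh11 (1.32 against 0.549 CPM) were higher. In the KO-labelled 48 h libraries the other immune markers Ptprc, Adgre1 and Csf1r had at most 3 counts, and Cd68 and the pericyte marker Rgs5 (0.238 against 0.268 CPM) were not called. The smooth muscle and pericyte markers summed to 77.8 to 79.6 against 72.3 to 82.2 CPM at 48 h, nearly all from Abcc9, which was not called. The part of such other cells in the differences below was not tested.

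In myoblasts, 6 of the 10 genes were lower in the KO-labelled libraries and 0 were higher, where 11.6% of all genes tested were called, 6.69% lower and 4.86% higher. These were Mstn, Fst, Tgfb1, Tgfb2, Tgfb3 and Tgfbr2. At 48 h, 5 were lower (Fst, Fstl1, Inhba, Tgfb2 and Tgfbr2) and 1 was higher (Tgfbr1), against 25.2% of all genes called, 14.1% lower and 11% higher. At 72 h, Tgfb2 was lower and Fst was higher, and the other 8 were not called, against 13% of all genes called, 6.72% lower and 6.32% higher. Tgfb2 was the member called in the same direction at all 3 stages. The median log2 difference over the 10 members was -0.28, -0.20 and 0.032 at the successive stages, and over all genes tested it was 0.014, -0.012 and -0.0063. A gene was called at an edgeR quasi-likelihood adjusted p under 0.05. All libraries entered 1 fit, so the 48 h group of 2 libraries was assumed to vary like the others.

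**Figure D1:**
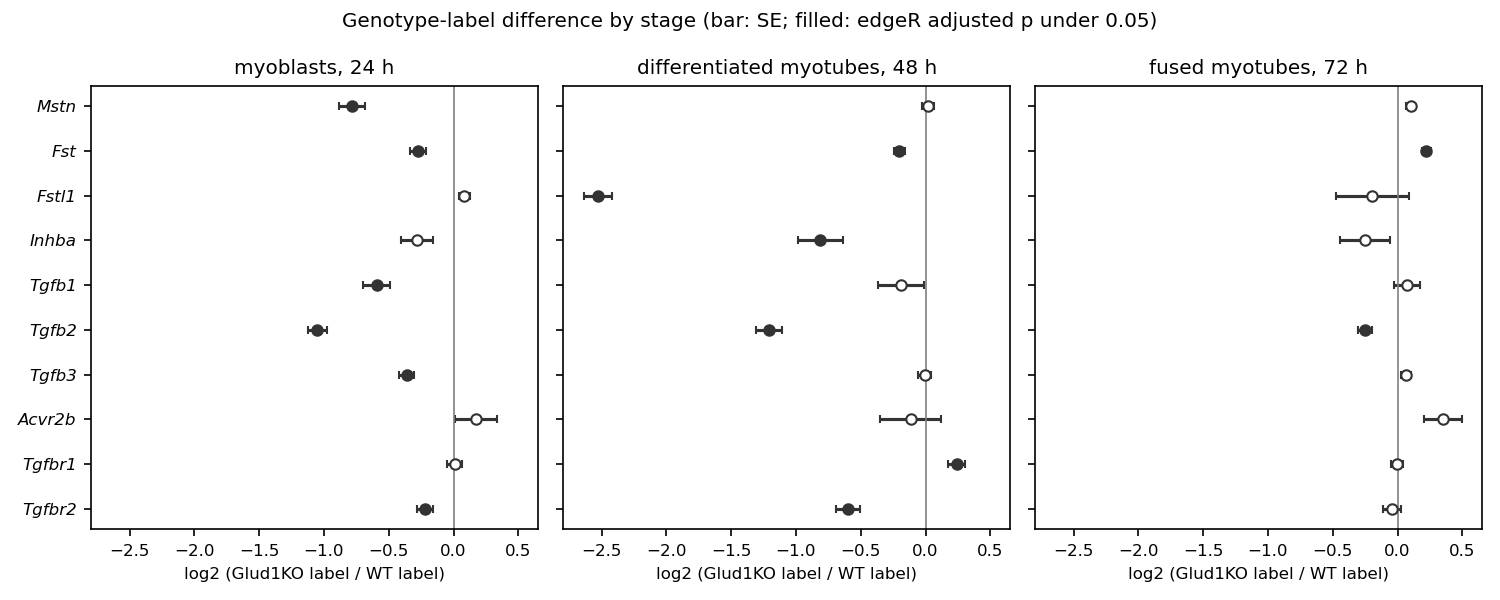
Log2 difference in CPM, KO-labelled minus WT-labelled, for each of the 10 genes at 24, 48 and 72 h, with bars of 1 SE from the edgeR fit and filled points where the gene was called. Tgfb2 lies below 0 at each stage, and Fstl1 at 48 h reaches -2.53.

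The change from myoblasts to differentiated myotubes was larger than the difference between labels for most members. In WT-labelled libraries 9 of 10 members were called between 24 and 48 h, 4 higher and 5 lower, where 85% of all genes were called, 42.4% higher and 42.6% lower. Between 48 and 72 h, 9 were called again, also 4 higher and 5 lower, against 75.1% of all genes, 37.4% higher and 37.7% lower. In KO-labelled libraries all 10 members were called from 24 to 48 h, 4 higher and 6 lower, against 83.7% of all genes, 41.3% higher and 42.5% lower. From 48 to 72 h 8 were called, 4 in each direction, against 70.2%, 35.8% higher and 34.4% lower. These counts are near the share of all genes that moved with the stage. The sizes and the courses differed between members, as the plot of each library's level shows. The label comparisons and the stage comparisons share libraries, so their values are set side by side below.

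**Figure D2:**
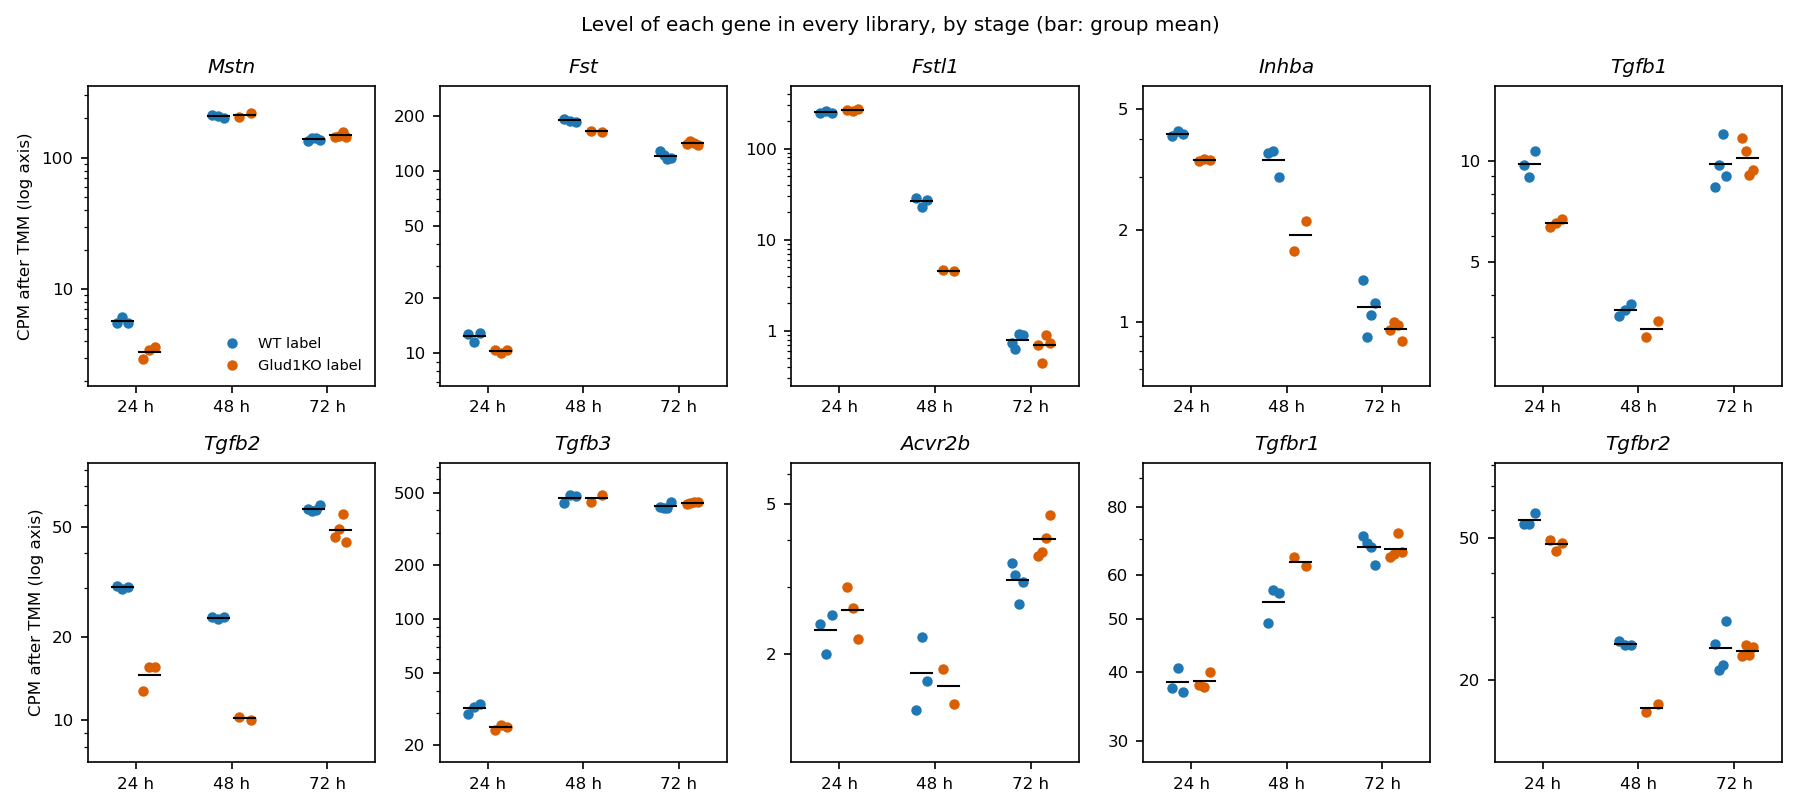
CPM (log axis) of the 10 genes in each of the 19 libraries, by stage and label, with 1 point per library and a bar at the group mean. Mstn, Fst and Tgfb3 are high at 48 and 72 h, Fstl1 is high at 24 h and at most 0.925 CPM at 72 h, and Tgfb1 and Acvr2b are lowest at 48 h.

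Myostatin, the ligand that limits muscle mass, is encoded by Mstn (ENSMUSG00000026100.6) on chromosome 1 from 53061640 to 53068079, plus strand (GRCm38, as are all positions here). Its RNA rose most of the 10 genes on the switch to differentiation, and Inhba, a ligand of the same family, fell in both steps, although its first fall under the WT label lost its call in 12 of 29 alternatives. The RefSeq promoters of this pair (GRCm38.p6, plus strand, 250 bases upstream of each annotated start, 5′ to 3′) are shown because they carry these motifs differently, a choice made after the values and motifs were seen. In capitals are matches to the E-box CANNTG, the core bound by myogenic bHLH factors, and to the motif of the MEF2 factors, both searched on both strands. The Mstn window is chr1:53061390-53061639 and the Inhba window is chr13:16011601-16011850.
Mstn: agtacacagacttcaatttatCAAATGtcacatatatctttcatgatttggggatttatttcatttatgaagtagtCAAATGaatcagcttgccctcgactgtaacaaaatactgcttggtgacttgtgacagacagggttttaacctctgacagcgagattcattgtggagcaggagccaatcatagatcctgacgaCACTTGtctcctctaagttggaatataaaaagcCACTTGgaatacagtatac
Inhba: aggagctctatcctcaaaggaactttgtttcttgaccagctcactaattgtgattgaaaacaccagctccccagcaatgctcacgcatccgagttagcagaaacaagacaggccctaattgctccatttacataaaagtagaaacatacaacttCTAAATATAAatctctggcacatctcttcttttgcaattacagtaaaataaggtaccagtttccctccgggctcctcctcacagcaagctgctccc
The Mstn window holds 4 E-boxes, which begin 229, 174, 52 and 19 bases before the start. At least 1 such match is found in 66.2% of 32851 mouse promoters of this length, and 4 or more in 3.84%. The Inhba window holds 0 E-boxes and 1 MEF2 match, which begins 96 bases before the start and whose motif occurs in 2.92% of promoters. The Smad-associated motif CAGAC, also searched on both strands, matched at 2 places in the Mstn window and 0 in that of Inhba, and 42.2% of promoters hold it. No match overlapped one of another motif. A match describes the letters of the window and not the binding of a factor. Promoter sequence was matched for 8 of the 10 members, all but Fst and Tgfb3.

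In WT-labelled myoblasts Mstn stood at 5.56, 6.18 and 5.51 CPM, and in KO-labelled myoblasts at 2.95, 3.44 and 3.63 CPM, so the highest KO-labelled library lay below the lowest WT-labelled one. The fall was 0.78 ± 0.10 (SE) on the log2 scale, 1.72-fold (edgeR adjusted p = 3.01e-06). At 48 h the WT-labelled values of 213, 210 and 202 CPM and the KO-labelled values of 204 and 219 CPM overlapped, and the log2 difference of 0.020 had a 95% interval of -0.07 to 0.11. From 24 to 48 h Mstn rose 36.4-fold in WT-labelled and 63.5-fold in KO-labelled libraries. The rise was larger under the KO label by 0.80 ± 0.11 on the log2 scale (edgeR adjusted p = 4.72e-06), from the lower start to levels that overlapped. By 72 h it had fallen to 135, 141, 141 and 137 CPM and to 145, 148, 157 and 144 CPM, which did not overlap, with a log2 difference of 0.10 ± 0.036 that was not called (edgeR adjusted p = 0.0698).

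Myogenin (Myog), a bHLH factor of early differentiation, and the embryonic myosin Myh3 were also lower in the KO-labelled myoblasts. Myog had means of 73.6 against 114 CPM, a log2 difference of -0.63, and Myh3 117 against 221 CPM, a log2 difference of -0.92. Of 8 myogenic markers, 4 were lower at 24 h (Myog, Des, Myh3 and Ckm), 3 were lower at 48 h (Pax7, Myf5 and Myod1) and 1 was lower at 72 h (Myf5), and none was higher. Of all genes 6.69%, 14.1% and 6.72% were lower at these stages. Their part in the differences of the signalling genes was not tested. In bulk libraries a smaller share of cells of a type and less RNA per cell cannot be told apart.

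Inhba (ENSMUSG00000041324.14, chromosome 13, 16011851 to 16031621, plus strand) encodes the subunit of activin A. It was among the least abundant members, with 13 to 124 counts per library. In myoblasts the WT-labelled libraries had 4.08, 4.24 and 4.14 CPM and the KO-labelled ones 3.38, 3.44 and 3.40 CPM. These did not overlap, but the log2 difference of -0.29 ± 0.12 was not called (edgeR adjusted p = 0.141). At 48 h the values were 3.60, 3.66 and 2.99 CPM against 1.71 and 2.15 CPM, again without overlap, and the fall of 0.81 ± 0.17 on the log2 scale was called (edgeR adjusted p = 0.000877). At 72 h both labels lay between 0.866 and 1.37 CPM and overlapped. Between 48 and 72 h Inhba fell 2.98-fold in WT-labelled and 2.02-fold in KO-labelled libraries. Its smaller WT change from 24 to 48 h, a log2 fall of 0.29 (edgeR adjusted p = 0.0391), lost its call in 12 of 29 alternative settings, with edgeR adjusted p from 0.00043 to 0.27 over all of them.

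The TGF-beta ligands each took a course of their own. Tgfb3 rose with differentiation and stayed high, Tgfb1 dipped at 48 h, and Tgfb2 dipped slightly and then rose above its starting level.

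Tgfb1 (ENSMUSG00000002603.15, chromosome 7, 25687002 to 25705077, plus strand), which encodes TGF-beta 1, stood at 9.74, 8.99 and 10.7 CPM in WT-labelled and 6.36, 6.54 and 6.71 CPM in KO-labelled myoblasts. The KO-labelled libraries all lay lower, by 0.59 ± 0.11 on the log2 scale (edgeR adjusted p = 0.000339). At 48 h it was down to 3.46, 3.61 and 3.77 CPM and to 2.99 and 3.35 CPM, a difference that was not called (edgeR adjusted p = 0.477). At 72 h it was back at 8.40 to 12 CPM and 9.11 to 11.7 CPM, and the labels overlapped. The fall was 2.72-fold and the return 2.67-fold in WT-labelled libraries, and 2.06-fold and 3.21-fold in KO-labelled ones. Whether the label difference at 24 h differed from that at 48 h was not resolved, with a log2 difference of 0.40 and an interval of -0.01 to 0.81.

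Tgfb2 (ENSMUSG00000039239.14, chromosome 1, 186622792 to 186705989, minus strand) encodes TGF-beta 2 and showed the most lasting label difference. WT-labelled myoblasts had 30.6, 29.7 and 30.3 CPM and KO-labelled ones 12.7, 15.6 and 15.5 CPM, a log2 fall of 1.05 ± 0.072 (edgeR adjusted p = 4.38e-11). At 48 h the values were 23.6, 23.2 and 23.6 CPM against 10.3 and 10 CPM, a log2 fall of 1.21 ± 0.10 (edgeR adjusted p = 7.84e-10). Fused myotubes had 58.0, 57.1, 57.2 and 59.9 CPM against 45.9, 48.9, 55.3 and 44.0 CPM, a log2 fall of 0.25 ± 0.056 (edgeR adjusted p = 0.00278). The labels did not overlap at any stage. The rise from 48 to 72 h was 2.47-fold in WT-labelled and 4.81-fold in KO-labelled libraries, so the label difference shrank, by 0.96 ± 0.12 on the log2 scale (edgeR adjusted p = 1.69e-06). No shift of the label difference from 24 to 48 h was detected (edgeR adjusted p = 0.435).

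Tgfb3 (ENSMUSG00000021253.7, chromosome 12, 86056745 to 86079041, minus strand) encodes TGF-beta 3 and was the most abundant of the 3 at 48 and 72 h. Myoblasts had 29.8, 32.5 and 33.7 CPM under the WT label and 24.1, 25.7 and 25 CPM under the KO label, a log2 fall of 0.36 ± 0.058 without overlap (edgeR adjusted p = 9.83e-05). At 48 h both labels were high and overlapped, with 442, 487 and 484 CPM and 448 and 489 CPM, rises of 14.7-fold and 18.8-fold. The rise was larger under the KO label by 0.35 ± 0.076 on the log2 scale (edgeR adjusted p = 0.00138). At 72 h the levels were 416, 412, 413 and 444 CPM and 435, 442, 446 and 444 CPM, with no called difference between labels (edgeR adjusted p = 0.284). Tgfb3 lies across Ttll5 on the opposite strand, and strand use in the counting is not stated. Ttll5 averaged 483.1 estimated counts against 6423.4 for Tgfb3.

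Per length, the makeup of the TGF-beta ligand RNA turned over with differentiation. The summed TPM of the 3 genes was 33.6 ± 2.06 (SD, n = 3) in WT-labelled and 20.9 ± 1.26 (n = 3) in KO-labelled myoblasts. At 48 h it was 194 ± 9.40 (n = 3) and 169 ± 6.84 (n = 2), and at 72 h 177 ± 7.86 and 177 ± 2.73 (n = 4 each). Tgfb2 made up 40.4% ± 0.98 of the sum in WT-labelled myoblasts and 28.5% ± 2.72 in KO-labelled ones. At 48 h Tgfb3 supplied 94.2% and 97.4%, and Tgfb2 4.56% ± 0.54 and 1.64% ± 0.20. At 72 h Tgfb2 had regained 12.4% ± 0.64 and 9.98% ± 0.64. The Tgfb2 share of every KO-labelled library was below that of every WT-labelled library of its stage. These sums and shares are of TPM, do not follow from the CPM above, and were not tested. At 48 h the labels overlapped for Tgfb3 in CPM but not in TPM (171 to 190 against 160 to 169). The same held for Mstn, with TPM of 153 to 161 against 143 to 148.

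**Figure D3:**
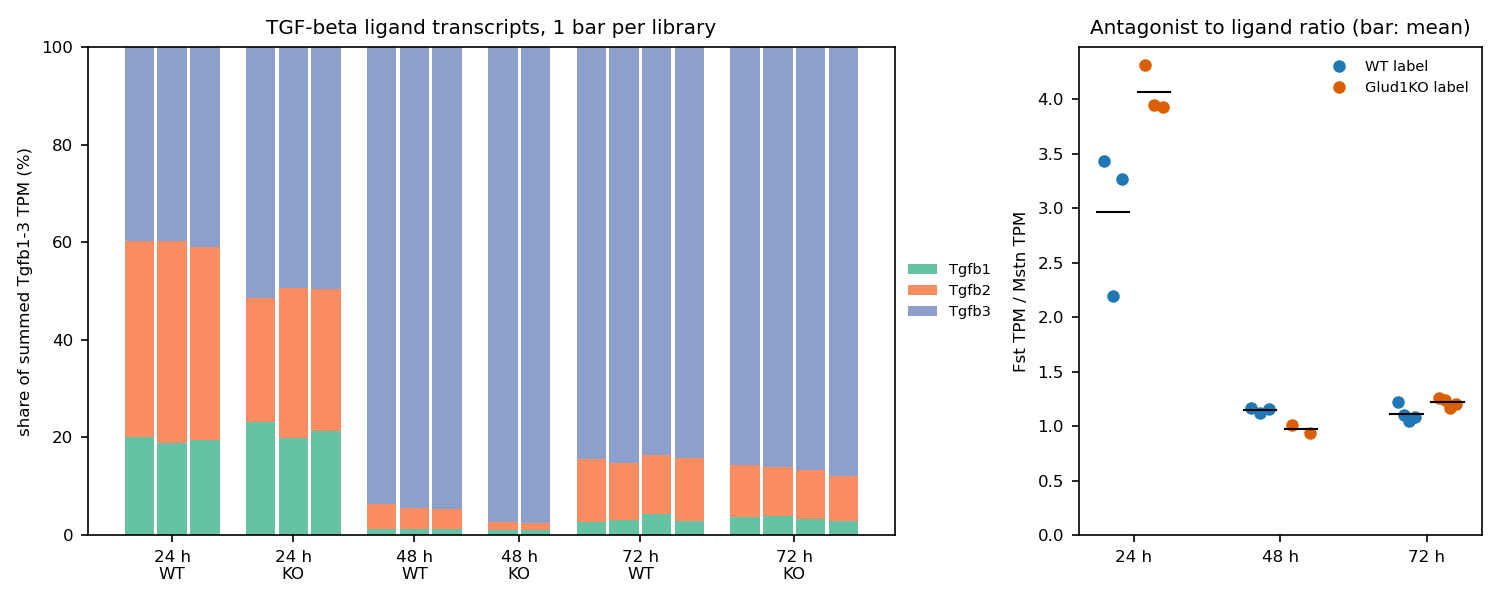
Left, the share of the summed TPM of Tgfb1, Tgfb2 and Tgfb3 (percent) taken by each gene, 1 bar per library; right, Fst TPM divided by Mstn TPM in each library, with a line at the group mean. Tgfb3 fills at least 83.6% of every bar at 48 and 72 h, and the ratio is at least 2.19 in myoblasts and at most 1.26 later.

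Fst (ENSMUSG00000021765.9, chromosome 13, 114452290 to 114458951, minus strand) encodes follistatin, the secreted protein that traps activins and myostatin. It changed direction between labels over the course. In myoblasts the WT-labelled libraries had 12.8, 11.5 and 13.0 CPM and the KO-labelled ones 10.5, 10 and 10.4 CPM, a log2 fall of 0.28 ± 0.063 (edgeR adjusted p = 0.00452). At 48 h there were 194, 189 and 186 CPM against 166 and 164 CPM, a log2 fall of 0.20 ± 0.043 (edgeR adjusted p = 0.000736). At 72 h there were 128, 123, 117 and 118 CPM against 140, 146, 142 and 139 CPM, a log2 rise of 0.22 ± 0.034 (edgeR adjusted p = 5.74e-05). The labels overlapped at none of the stages. The label difference at 72 h was 0.42 ± 0.055 above that at 48 h on the log2 scale (edgeR adjusted p = 4.45e-06).

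The rise of Fst from 24 to 48 h was 15.2-fold and 16-fold, and no difference between the rises was detected. The fall from 48 to 72 h was 1.56-fold under the WT label and 1.16-fold under the KO label. With a correction for effective length, the 24 h and 48 h falls were 0.31 and 0.23 on the log2 scale, slightly larger, but no longer called (edgeR adjusted p = 0.069 and 0.0576, from ranges over all alternatives of 0.00116 to 0.069 and 0.000131 to 0.0576). Per length, Fst RNA exceeded Mstn RNA 2.96-fold ± 0.68 (SD, n = 3) in WT-labelled and 4.06-fold ± 0.21 (n = 3) in KO-labelled myoblasts. Later the ratio of the TPM values was 1.15 and 0.972 at 48 h and 1.11 and 1.22 at 72 h. The means of both genes had risen by then, Mstn by more.

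Fstl1 (ENSMUSG00000022816.11, chromosome 16, 37776873 to 37836514, plus strand) encodes a secreted glycoprotein of the follistatin-like family. It showed the largest label difference among the members. Its RNA was abundant in myoblasts, with 249, 256 and 249 CPM under the WT label and 267, 259 and 272 CPM under the KO label. These did not overlap, but the log2 difference of 0.084 ± 0.045 was not called (edgeR adjusted p = 0.254). At 48 h the WT-labelled libraries had 29.0, 22.7 and 27.5 CPM and the KO-labelled ones 4.60 and 4.56 CPM, 5.76-fold lower (log2 -2.53 ± 0.11, edgeR adjusted p = 1.96e-15). By 72 h Fstl1 was nearly gone under both labels, with 0.634 to 0.925 CPM and 0.445 to 0.894 CPM, from 8 to 22 counts per library, and the labels overlapped.

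The descent of Fstl1 was thus divided differently between the steps. From 24 to 48 h it fell 9.5-fold under the WT label and 58-fold under the KO label. From 48 to 72 h it fell 32.6-fold and 6.46-fold. The label difference moved by -2.61 ± 0.12 on the log2 scale from 24 to 48 h (edgeR adjusted p = 2.94e-14) and by 2.33 ± 0.32 from 48 to 72 h (edgeR adjusted p = 1.12e-05). Of the 8 fibroblast markers, 2 of 4 tested were also lower at 48 h: Col3a1, with means of 9.06 against 24.3 CPM, and Ly6a, with 0.0262 against 0.503 CPM, where 14.1% of all genes were lower. The list summed to 23.9 to 26.7 CPM under the WT label and 7.70 to 12.1 CPM under the KO label, most of it Col3a1. Pdgfra was not called, at 0.474 against 0.366 CPM, and Dpt, Lum, Twist2 and Tcf21 had at most 3 counts in every library of both groups. The part of such cells in the Fstl1 difference was not tested.

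Among the receptors, Tgfbr2 was lower and Tgfbr1 higher under the KO label at 48 h, and Acvr2b was called at no stage. Acvr2b (ENSMUSG00000061393.14, chromosome 9, 119402118 to 119434995, plus strand), the type II receptor for myostatin and activins, had 28 to 105 counts per library. Myoblasts had 2.39, 1.99 and 2.54 CPM under the WT label and 3.01, 2.65 and 2.19 CPM under the KO label. At 48 h there were 1.42, 2.22 and 1.69 CPM and 1.82 and 1.47 CPM, both pairs overlapping. At 72 h there were 3.47, 3.24, 2.71 and 3.09 CPM and 3.64, 3.73, 4.05 and 4.66 CPM, which did not overlap. That log2 difference of 0.35 had a 95% interval of 0.07 to 0.63 and was not called (edgeR adjusted p = 0.116). From 24 to 48 h its log2 fall of 0.68 under the KO label was called (edgeR adjusted p = 0.00508), but not without KO-labelled 48 h replicate 2 (edgeR adjusted p = 0.0737) or with the effective length correction (log2 -0.42, edgeR adjusted p = 0.137), within a range over all alternatives of 0.000138 to 0.137. From 48 to 72 h Acvr2b rose 1.76-fold under the WT label and 2.44-fold under the KO label.

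Tgfbr1 (ENSMUSG00000007613.15, chromosome 4, 47353222 to 47414931, plus strand), the type I receptor kinase for TGF-beta, stood at 37.5, 40.8 and 36.9 CPM and at 38.0, 37.6 and 40.1 CPM in myoblasts, with overlap between labels. At 48 h it was 49.1, 56.4 and 55.8 CPM against 64.8 and 62.4 CPM, higher under the KO label by 0.24 ± 0.062 on the log2 scale (edgeR adjusted p = 0.00497). At 72 h the labels overlapped again, at 62.8 to 70.9 CPM and 64.8 to 71.6 CPM. Tgfbr1 rose by 0.49 and then by 0.32 on the log2 scale under the WT label, whereas under the KO label it rose by 0.72 by 48 h and its further change of 0.080 was not called (edgeR adjusted p = 0.234). With a length and GC trend removed, an alternative added after the data were seen, that change was 0.27 and called (edgeR adjusted p = 6.1e-05, from a range over all alternatives of 6.1e-05 to 0.891). The label difference fell by 0.24 ± 0.078 on the log2 scale from 48 to 72 h (edgeR adjusted p = 0.036), a call that was lost in 12 of 29 alternatives, with adjusted p from 0.00804 to 0.161. The 48 h call was lost without KO-labelled 48 h replicate 1 (edgeR adjusted p = 0.0672) and with the effective length correction (edgeR adjusted p = 0.0601), within a range over all alternatives of 9.37e-05 to 0.0672.

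Tgfbr2 (ENSMUSG00000032440.13, chromosome 9, 116084293 to 116175360, minus strand), the type II receptor that binds TGF-beta, was lower under the KO label at 24 and 48 h. Myoblasts had 54.6, 54.8 and 58.7 CPM against 49.4, 46.1 and 48.4 CPM, a log2 fall of 0.22 ± 0.062 (edgeR adjusted p = 0.0175). At 48 h there were 25.8, 25 and 25.1 CPM against 16.3 and 17.1 CPM, a log2 fall of 0.60 ± 0.093 (edgeR adjusted p = 2.19e-05). Neither stage showed overlap. At 72 h the labels overlapped, at 21.4 to 29.3 CPM and 23.4 to 25 CPM. The 24 h call was lost without WT-labelled replicate 3 (edgeR adjusted p = 0.109) and without KO-labelled replicate 2 (edgeR adjusted p = 0.0858). It was also lost with protein-coding transcripts alone (edgeR adjusted p = 0.0661) and with the effective length correction (edgeR adjusted p = 0.156), within a range over all alternatives of 0.000576 to 0.156.

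Over the stages Tgfbr2 fell 2.22-fold by 48 h under the WT label, after which its change was not called, whereas it fell 2.88-fold under the KO label and then rose 1.45-fold. The label difference shifted by -0.38 ± 0.11 on the log2 scale from 24 to 48 h (edgeR adjusted p = 0.0188) and by 0.56 ± 0.12 from 48 to 72 h (edgeR adjusted p = 0.00154). Without KO-labelled 48 h replicate 1 the first of these was not called (edgeR adjusted p = 0.103, the highest over all alternatives, with 0.00148 the lowest).

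Shifts of the label difference were called for 4 of the 10 members between 24 and 48 h, 2 upward and 2 downward, against 19.1% of all genes, 7.78% upward and 11.3% downward. Between 48 and 72 h they were called for 5, 4 upward and 1 downward, against 14.8%, 8.27% upward and 6.53% downward. Libraries of the labels did not overlap for 8 members at 24 h, 7 at 48 h and 4 at 72 h, where 33%, 46.5% and 15.8% of all genes tested did not overlap.

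The mix of annotated transcripts was also described for the members. For Tgfbr2, transcript Tgfbr2-202 held 52.1% ± 1.67 (SD, n = 3) of the estimated counts at 48 h under the WT label and 61.2% ± 3.30 (n = 2) under the KO label, with ranges of 50.7 to 54.0% and 58.9 to 63.6% that did not overlap. In fused myotubes the means were 52.7% and 50.9%. For Tgfb1, the transcript with a retained intron, Tgfb1-204, held 7.39% ± 4.00 (n = 3) and 12.7% ± 0.83 (n = 2) at 48 h, with ranges of 2.81 to 10.1% and 12.1 to 13.3%, from 56 to 107 counts of the gene. KO-labelled myoblasts ranged from 2.25 to 4.39%, which overlaps the WT-labelled 48 h libraries. For Fst, Fst-205 held 17.4% to 25.9% of the counts in the group means. Shares of this kind are estimates, since reads that fit several transcripts are divided between them, and they were not tested.

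Beyond the members, 66 of 81 other genes of the pathway, in 7 lists also chosen with earlier results known, had enough counts to be tested. At 24 h 10 of the 66 were called, 2 higher and 8 lower under the KO label, beside 11.6% of all genes (4.86% higher and 6.69% lower), with a median log2 difference of 0.0014 without Bmp2, which was at 0 counts in the KO-labelled myoblasts. At 48 h 37 were called, 4 higher and 33 lower, with a median of -0.37, beside 25.2% of all genes called (11% higher and 14.1% lower). At 72 h 13 were called, 8 higher and 5 lower, with a median of 0.0025, beside 13% of all genes. The 24 h count was 5 with protein-coding transcripts alone, 2 with the effective length correction and 17 when only the compared libraries were fitted, and 6 without WT-labelled replicate 3. The 72 h count was 7 with the effective length correction and 8 without KO-labelled 72 h replicate 2. Between 24 and 48 h the label difference shifted upward for 5 genes and downward for 26, against 7.78% and 11.3% of all genes. Between 48 and 72 h it shifted upward for 26 and downward for 1, against 8.27% and 6.53%.

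The list of TGF-beta response genes, matrix and cytoskeletal genes that TGF-beta is known to induce, had its lowest label difference at 48 h. Of its 13 genes 8 were lower and 1 was higher, with a median log2 difference of -1.02, where 14.1% of all genes were lower and 11% higher. The fibroblast markers Col3a1 (log2 -1.43) and Ly6a were lower at the same stage, and their part in this was not tested. Fibronectin (Fn1) had 16.9 against 74.0 CPM, a log2 fall of 2.13 ± 0.12, and the collagen cross-linking enzyme Lox had 7.34 against 23.2 CPM, a log2 fall of 1.66 ± 0.11. Tgfb1i1, a focal adhesion adaptor, fell by 1.21 ± 0.11 on the log2 scale, and the metalloproteinase inhibitor Timp1 fell by 1.02 ± 0.10. The higher gene was Cdkn2b, a CDK inhibitor, at 43.0 against 35.3 CPM, which lies outside the rule for named genes and was chosen after its values were seen. In myoblasts 1 of the 13 was higher and 1 lower, beside 11.6% of all genes called, and in fused myotubes 3 were higher and 2 lower, beside 13%. These genes also moved with the stage. From 24 to 48 h Fn1 fell 8.65-fold under the WT label and 40.3-fold under the KO label. Tagln, a smooth muscle actin-binding protein, fell 71.9-fold and 62.6-fold from 48 to 72 h.

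Among 12 genes that store or release latent ligand, 8 were lower and 1 higher at 48 h, with a median log2 difference of -0.37, beside 14.1% of all genes lower and 11% higher. Thrombospondin 1 (Thbs1), a known activator of latent TGF-beta, had 82.8 against 239 CPM, a log2 fall of 1.53 ± 0.064. The membrane protease Mmp14 had 5.18 against 15.6 CPM, a log2 fall of 1.58 ± 0.10, and the latent TGF-beta binding protein Ltbp4 had 0.529 against 2.25 CPM. The integrin subunit Itgb6, which takes part in TGF-beta activation, rose with differentiation by about the same factor, 9.29-fold under the WT label and 9.32-fold under the KO label. The other ligand list had 2 lower and 1 higher of 4 tested at 48 h: Gdf15 fell by 1.34 ± 0.18 and Inhbb, the subunit of activin B, by 1.33 ± 0.33 on the log2 scale. Inhbb also fell with differentiation, 11-fold and 26-fold.

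Of 13 Smad proteins, partners and inhibitors, 6 were lower and 0 higher at 48 h, with a median of -0.10, where 14.1% of all genes were lower and 11% higher. Of 16 genes of the BMP arm, the branch of the family with its own ligands and Smads, 8 were lower and 0 higher, with a median of -0.52, beside the same shares. The ligand Gdf6 was lower at 24 h, with 4.27 against 9.27 CPM (log2 -1.11 ± 0.10), and at 48 h, with 6.59 against 14 CPM (log2 -1.08 ± 0.11). The BMP antagonist Grem1 had 0.529 against 1.90 CPM at 48 h, a log2 fall of 1.82 ± 0.26, after falls of 42.1-fold and 125-fold from myoblasts. The type I BMP receptor Bmpr1b rose 8.84-fold and 16.3-fold from 48 to 72 h. Of 5 tested antagonists and co-receptors 1 was higher and 0 lower at 48 h, and of 3 other receptors 1 was lower. The satellite cell factor Pax7 was lower at 48 h as well, with 5.63 against 10.6 CPM, and its part in the 48 h differences was not tested.

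**Figure D4:**
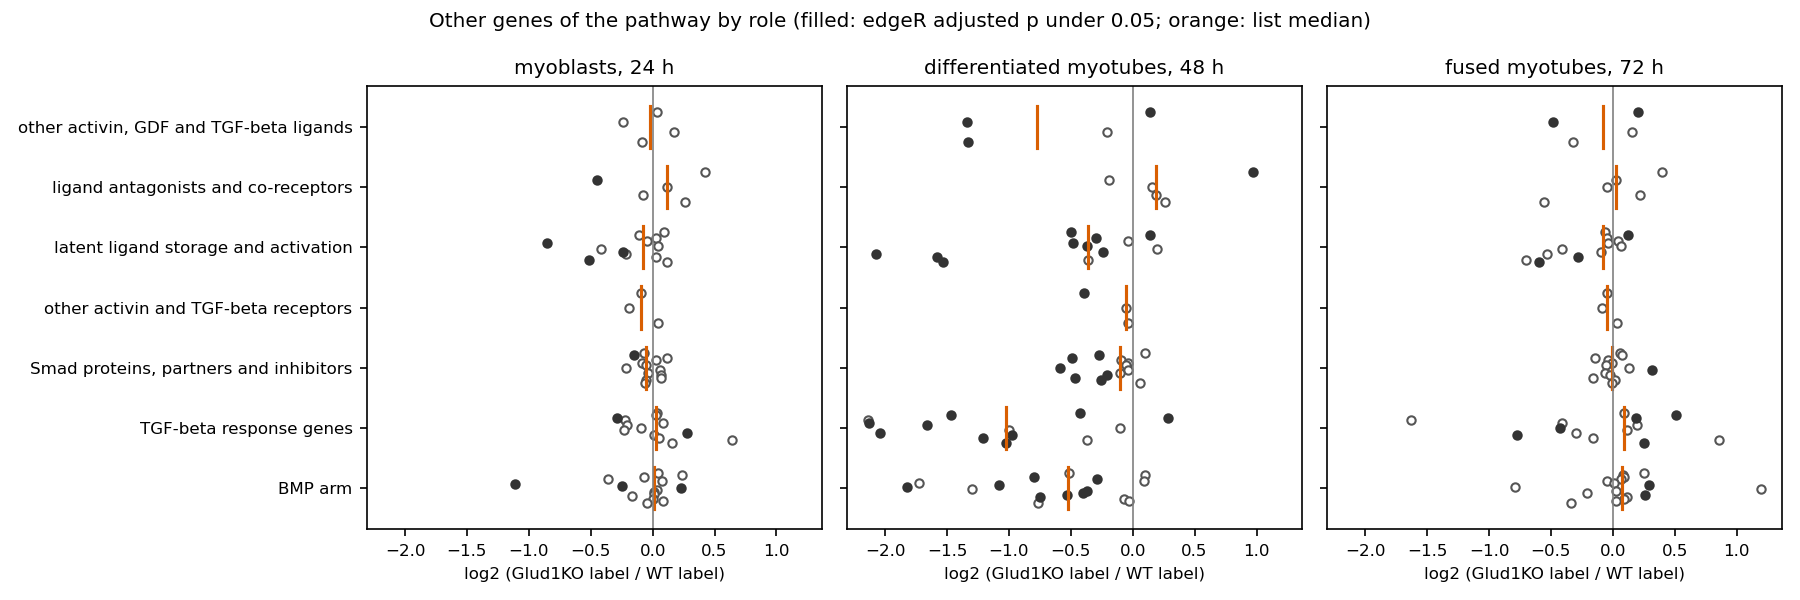
Log2 difference in CPM, KO-labelled minus WT-labelled, of each tested gene of the 7 pathway lists at 24, 48 and 72 h, with filled points for called genes and a bar at the median of each list. Bmp2 at 24 h, with all KO-labelled libraries at 0 counts, is not drawn. At 48 h the points of the TGF-beta response genes lie mostly below 0, around a median of -1.02.

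The genes whose profile over the 19 libraries was most like that of a member were found by the root mean square difference of centred log2 CPM. For Mstn they were Kcnk13 at 0.148, Zdbf2 at 0.157 and Fbxl22 at 0.187. Tgfb3 had Arpp21 at 0.108, Myom3 at 0.115 and Scd1 at 0.138, and Fst had Ablim1 at 0.149, Dlg2 at 0.157 and Paxx at 0.172. Those of Fstl1 were farther off and included Flna at 0.545 and Aqp1 at 0.574, and those of Tgfb2 were Mamdc2 at 0.287, Mgst3 at 0.288 and Htra1 at 0.328. Tgfbr1 had Spop at 0.0596, Uvrag at 0.0666 and Dis3l at 0.0699, and Tgfbr2 had Zbtb7c at 0.122, Opn3 at 0.135 and Ikbkg at 0.139. For Tgfb1 they were Hk1 at 0.181, Nfatc1 at 0.195 and Nck2 at 0.203, for Inhba Acly at 0.201, Afap1 at 0.205 and Pld1 at 0.206, and for Acvr2b Bmper at 0.176, Tmem131 at 0.187 and Megf9 at 0.187.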

How the data were processed

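RNA from 19 libraries was extracted with an RNeasy micro kit and prepared with an Illumina TruSeq mRNA kit, per the labels' protocols. The submitters' processing notes name bcl2fastq 2.20, fastp 0.20.0, kallisto 0.46.1, edgeR 3.36 and GRCm38.p6. Per the file headers, the authors deposited an estimated count, a TPM value, a length and an effective length for each of 121843 transcripts. The estimated counts deposited by the authors divide reads that fit several transcripts, and the deposited TPM values are scaled for length and keep no depth, so TPM entered no test and served to describe levels, shares and ratios per length. The deposited lengths and effective lengths are in bases, and the effective length entered 1 alternative.

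Of the transcripts 121018 matched GENCODE M21, 120744 with the same length, and 825 unmatched ones, with 0.255% to 0.507% of the counts, were left out. Estimated counts were summed per gene, rounded, filtered with filterByExpr and scaled by TMM. edgeR 4.0.16 in R 4.3.3 fitted 1 coefficient for each of 6 groups by quasi-likelihood, with Benjamini-Hochberg adjustment over 15123 genes and calls at an adjusted p under 0.05. The common biological coefficient of variation was 4.03%. There were 9 comparisons. Replicate pairs within a group differed by more than sampling noise, with a chi-square of 2.07 to 7.06 per degree of freedom. On simulated data the script was required to recover large changes, in well-counted genes alone. Recovery of changes as small as many of those called here was not required. Alternatives used DESeq2 1.42.0, other filters, scalings and transcript sets, and left out each library in turn.

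The members, pathway lists and marker lists were chosen with earlier results of these data known. Named pathway genes were those called at a log2 change of at least 1 between labels or 3 between stages, with a mean of at least 1 CPM in the higher group, up to 4 per list and comparison. Other genes were the 10 members, Glud1, the markers and the 3 nearest profiles of each member (root mean square difference over the libraries, prior count 2). Cdkn2b, Bmp2 and Ttll5 lie outside this rule and were named after their values were seen. Some genes that this rule names are not reported here. Promoter windows come from RefSeq (GRCm38.p6). A shift of the label difference is its value at the later stage minus that at the earlier one.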

Additional observations from a re-analysis of the deposited data

Results flagged for a closer look

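Of 20 groups of 4 libraries tested for a single value far from the rest (Dixon's test at 95%, which chance flags in about 1 of 20 groups), 1 stood out: Tgfb3 in WT-labelled fused myotubes, where 1 library had 444 CPM and the others 412 to 416 CPM. The KO-labelled fused myotubes ranged from 435 to 446 CPM.

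The difference between labels itself differed between stages for 7 members, by the edgeR test of that shift. From 24 to 48 h it moved upward on the log2 scale by 0.80 for Mstn and by 0.35 for Tgfb3. The levels of both were lower under the KO label in myoblasts and overlapped at 48 h. Over the same step it moved by -2.61 for Fstl1 and by -0.38 for Tgfbr2, each lower under the KO label at 48 h. From 48 to 72 h it moved by 2.33 for Fstl1, by 0.56 for Tgfbr2, by 0.96 for Tgfb2 and by 0.42 for Fst, and by -0.24 for Tgfbr1. The Tgfbr1 shift lost its call in 12 of 29 alternatives, and the first Tgfbr2 shift lost it without KO-labelled 48 h replicate 1 (edgeR adjusted p = 0.103, the highest over its alternatives, with 0.00148 the lowest). In Fst the sign of the difference turned from lower to higher under the KO label.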

How the results depend on the processing

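Each of the 90 log2 differences of the members was recomputed under 29 alternatives, 2610 values in all, of which 2506 kept their direction and their side of the threshold, 36 gained a call, 35 lost one and 33 changed sign. Of the 59 called differences 51 kept call and direction under each alternative, and 0 changed sign. The numbers of members called between labels were 4 to 6 at 24 h, 4 to 6 at 48 h and 2 to 3 at 72 h over these alternatives, the lowest at 24 h with the effective length offset. The number of other pathway genes called at 24 h, 10 as reported, was 17 with only the compared libraries fitted, 2 with an effective length offset, 5 with protein-coding transcripts alone and 6 to 12 with 1 library left out (6 without WT-labelled replicate 3). At 72 h it was 7 instead of 13 with the offset, and 8 to 14 with 1 library left out. All genes called at 24 h numbered 1747, but 2625, 584 and 1055 in those 3 settings, and 925, 1144 and 1067 without WT-labelled replicate 3, KO-labelled replicate 1 or KO-labelled replicate 3. The offset also lowered the count from 3810 to 2149 at 48 h, from 1972 to 823 at 72 h, and for the shifts from 2890 to 1454 and from 2238 to 981. The causes were not tested.

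Sign changes touched only differences that were not called. At 48 h Mstn was -0.037 with library size scaling, which moved the median of all genes in that comparison by -0.056, about the whole move of Mstn, and -0.031 to 0.071 with 1 library left out. Tgfb3 at 48 h was 0.0071 both in DESeq2 and with its size factors, 0.0050 with protein-coding transcripts, and -0.073 to 0.056 leaving libraries out. With the offset Fstl1 at 72 h was 0.20 and Acvr2b at 48 h 0.057, the latter -0.28 to 0.063 leaving libraries out. Tgfbr1 at 24 h was -0.011 with the size factors of DESeq2, -0.012 in DESeq2 itself, -0.0033 with only the compared libraries and -0.016 with a length and GC trend removed (added after the data were seen), and -0.020 to 0.052 leaving libraries out. Tgfbr1 at 72 h was 0.00024 with a filter on mean CPM and 0.045 with the trend removed (-0.041 to 0.022 leaving libraries out), and from 48 to 72 h under the KO label -0.011 with protein-coding transcripts. Tgfbr2 at 72 h was -0.099 to 0.064 leaving libraries out, and its WT change from 48 to 72 h was 0.084 with the trend removed and -0.13 to 0.032 leaving libraries out.

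Libraries of different groups with the same replicate number did not detectably deviate together (correlations of -0.051 to 0.039). This cannot settle whether equal numbers share an origin, which is not given. With a replicate block 6, 6 and 2 members were called between labels at the 3 stages, as without it, 8 instead of 9 in the first WT step, 9 instead of 8 in the second KO step and 5 instead of 4 for the first shift. Tgfb3 at 48 h was 0.0050 with the block. Mstn at 72 h (edgeR adjusted p = 0.0698) was called in 4 of 29 alternatives, over a range of 0.0257 to 0.269. The Tgfbr1 shift from 24 to 48 h (edgeR adjusted p = 0.0549) was called in 12. The KO-labelled Tgfb3 change from 48 to 72 h (edgeR adjusted p = 0.105) was called in 10. The WT-labelled Acvr2b change from 24 to 48 h (edgeR adjusted p = 0.0514) was called in 8. Library size scaling moved the median of all genes by -0.25 and -0.31 from 24 to 48 h under the WT and KO labels. Depth limits Inhba and Fstl1, with as few as 13 and 8 counts in a library at 72 h, and Acvr2b, with as few as 28 at 48 h.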
